A study of Mus musculus with 4 samples.

Results

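Kinesin genes were followed in mouse medulloblastoma and normal cerebellum. Kinesins are motor proteins that turn ATP into movement along microtubules or into the shortening of microtubule ends. In dividing cells some of them build the spindle, align chromosomes and complete cytokinesis. In neurons, which no longer divide, others carry vesicles, mitochondria and receptors along axons and dendrites, and a few work in cilia, where Hedgehog signals are received. Members were the genes whose single annotated symbol was Kif followed by a digit, or Kifc1, Kifc2 or Kifc3. Kif1bp (now Kifbp), whose symbol fits the rule, is a binding protein of kinesins and not a kinesin, and was left out. It was lower in the tumours (-0.97) and is given with the genes that work with kinesins. The members were then 40 genes among the 19938 that a probe set named alone. They were ordered by role into 11 mitotic kinesins, 17 transport kinesins and 12 others, among them 1 pseudogene, Kif4-ps. Kifc1, a minus-end motor of the spindle, had no probe set of a single symbol and was not analysed here.

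The series held 4 arrays of total RNA, 1 for each tissue sample. A PtchLacZ/+ medulloblastoma, from a mouse with a lacZ allele of the Hedgehog receptor gene Ptch1, was taken at 5 months. A pair of Math1-Cre;SmoM2 medulloblastomas, in which Cre made in the Math1 (Atoh1) lineage switches on an active Smoothened, was taken at 2 months and at 1 month. The wild-type cerebellum was taken whole at 2 months, and all mice were of a mixed background of C57BL/6 and C3H. The labels do not say how many animals each sample came from. The spread behind the p-values is partly that between tumours of different age and, against the cerebellum, also of different genotype. The limma fit draws each gene's spread toward a value estimated over all genes. The technical and biological parts of the spread between tumours cannot be told apart.

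The array medians over named genes lay between 6.73 and 6.82 on the log2 scale. Of 5 granule neuron progenitor markers, 3 rose in the tumours (Atoh1, Barhl1 and Ccnd2), and the cerebellum held its defining markers, with Gabra6 of granule neurons at 12.24 and Pcp2 of Purkinje cells at 9.63. The arrays were not alike in other cells. The summed linear level of 3 choroid plexus markers was 1892 in the PtchLacZ/+ tumour, 81.3 in the SmoM2 tumour at 2 months, 2584 in that at 1 month and 213 in the cerebellum. That of 3 endothelial markers was 390, 836 and 369 in the tumours in that order, and 438 in the cerebellum. Purkinje cell markers summed to 167, 834 and 1027 in the tumours and 12585 in the cerebellum, and astrocyte markers to 2529, 4535 and 4930 in the tumours and 18058 in the cerebellum. The oligodendrocyte sum was 374, 709 and 695 in the tumours and 2533 in the cerebellum. The Purkinje cell, astrocyte and oligodendrocyte sums were thus all lowest in the PtchLacZ/+ tumour. Among the astrocyte markers, Gfap went the other way and lay above the cerebellum by 0.55, 1.73 and 1.23 in the tumours (log2). The choroid plexus markers did not move together. Ttr differed from the cerebellum by 4.58, -1.73 and 5.05 in the tumours in the same order. Kl differed by 0.56, 0.07 and 0.82, and Kcnj13 by -0.93, -1.83 and -0.86. The high choroid plexus sums thus rested mostly on Ttr. Microglia and macrophage markers summed to 2077, 2069 and 1586 in the tumours and 562 in the cerebellum.

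The stretches around the transcription start are shown for 7 mitotic kinesins, picked because they hold a short cell cycle motif within 20 bases of it. Kif14, Kif18a and Kif2c do not, and Kif20a had no window. They were read from RefSeq promoter windows of build GRCm38.p6, which span 250 bases before to 50 bases after each start, and each line gives 80 bases before the start and 30 from it on. Capitals mark the cell cycle genes homology region (CHR, TTTGAA), the CCAAT box (the letters of its name, bound by the factor NF-Y) and E2F motifs, which were the letters TTCCCGC, or else the letters TTCGCGC, or else the letters TTGGCGC, each searched on both strands. None of the marked matches overlap, although the last E2F form can share bases with a CCAAT box. Positions are counted from the start base as 0. Kif5c, a neuronal transport kinesin, is shown beside them and holds none of these letters in its stretch.
Kif11, chr19:37376302-37376411, plus strand: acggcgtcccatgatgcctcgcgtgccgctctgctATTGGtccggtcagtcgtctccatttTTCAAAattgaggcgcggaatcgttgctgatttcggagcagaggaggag
Kif15, chr9:122951001-122951110, plus strand: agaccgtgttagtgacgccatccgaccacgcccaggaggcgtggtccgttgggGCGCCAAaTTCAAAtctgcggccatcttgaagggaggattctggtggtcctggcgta
Kif18b, chr11:102925095-102925204, minus strand: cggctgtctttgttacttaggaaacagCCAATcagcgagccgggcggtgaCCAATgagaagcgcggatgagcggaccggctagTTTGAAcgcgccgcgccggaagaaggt
Kif22, chr7:127042391-127042500, minus strand: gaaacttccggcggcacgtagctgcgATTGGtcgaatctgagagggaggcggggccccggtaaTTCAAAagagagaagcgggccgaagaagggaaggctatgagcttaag
Kif4, chrX:100625985-100626094, plus strand: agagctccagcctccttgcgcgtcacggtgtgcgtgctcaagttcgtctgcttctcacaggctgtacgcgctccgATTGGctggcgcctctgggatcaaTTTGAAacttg
Kif23, chr9:61946770-61946879, minus strand: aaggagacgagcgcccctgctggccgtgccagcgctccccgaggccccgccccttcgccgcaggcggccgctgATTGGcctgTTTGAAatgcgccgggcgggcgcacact
Kif20b, chr19:34922278-34922387, plus strand: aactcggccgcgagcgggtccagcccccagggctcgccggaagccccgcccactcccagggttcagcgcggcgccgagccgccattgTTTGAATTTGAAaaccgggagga
Kif5c, chr2:49619206-49619315, plus strand: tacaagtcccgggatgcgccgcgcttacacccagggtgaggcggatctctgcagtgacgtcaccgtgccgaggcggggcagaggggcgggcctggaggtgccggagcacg

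The CHR letters were present in 9 of the 10 promoter windows of mitotic kinesins, in 1 of the 13 of transport kinesins (7.69%) and in 2 of the 12 of other kinesins (16.7%), against 17.9% of all 32851 windows. Within 20 bases of the start, 7 of the 10 mitotic windows and 2.22% of all windows held a match. In Kif11 the match, on the opposite strand, began at -19, with a CCAAT box at -45. In Kif23 the match began at 2, and Kif20b held 2 matches, at 7 and 13. Kif14 and Kif2c held theirs farther away, at -228 and -103, and Kif18a, which matched no CHR letters, held an E2F motif. Both a CHR and a CCAAT box were in 6 of the 10 mitotic windows, in 0 of the 13 transport windows and in 2 of the 12 others (16.7%, Kif26b and Kif27), against 6.95% of all windows. E2F motifs were in 2 of the 10 mitotic windows, 1 transport window (7.69%) and 2 others (16.7%), against 8.07% of all. Of the 40 kinesins, 31 had a window, and Kif20a, Kif5a, Kif5b, Kifc2, Kifc3, Kif13b, Kif21b, Kif19a and Kif4-ps had none in the table. A match describes letters and is not a measured binding site.

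**Figure D1:**
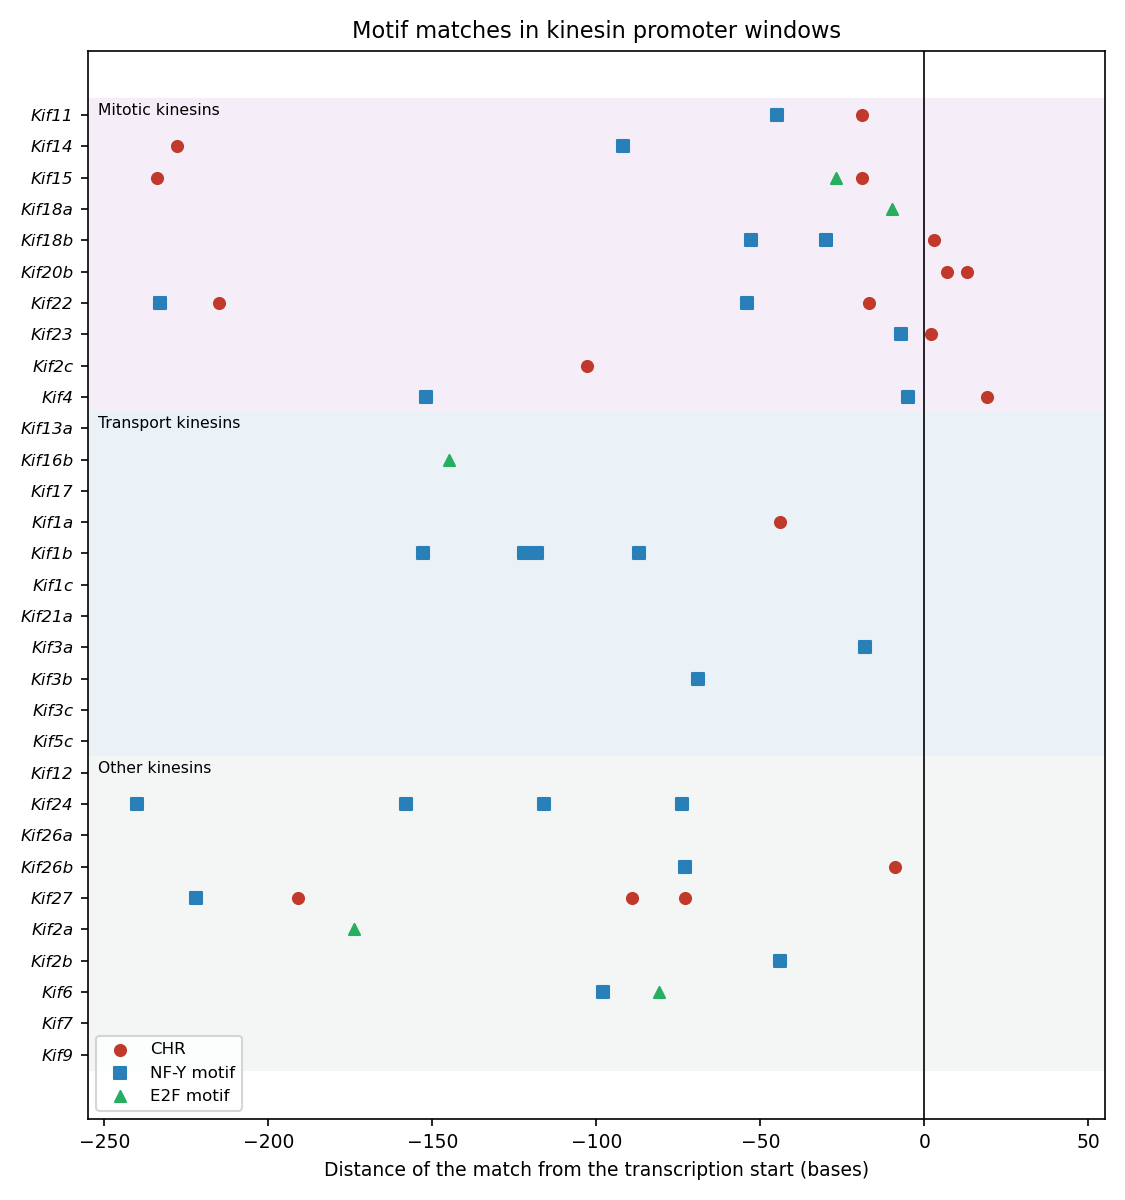
Matches of the CHR, NF-Y (CCAAT box) and E2F motifs in the promoter windows of 31 kinesins, by distance from the transcription start in bases (x axis), with a line for each gene. CHR matches (circles) lie within 20 bases of the start in 7 mitotic kinesins and in 1 of the others, Kif26b.

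The 3 tumours were compared with the cerebellum to ask how the motor genes of dividing cells and of neurons differ between Hedgehog-driven medulloblastoma and normal cerebellum. All 11 kinesins listed as mitotic rose in the tumours, with a median difference of 3.99 on the log2 scale. Kif2a, which also works at spindle poles, and Kif2b were listed among the others, and neither passed (0.04 and -0.45). Among 17 transport kinesins, 2 fell, none passed as higher, and the median difference was -0.57. Of the 12 others, Kif24 rose and Kif26b fell. In the cerebellum, Kif11, Kif15, Kif18a, Kif20a, Kif20b, Kif2c and Kif4 lay below 5.09, the lower quartile over named genes there, and are not shown to be above background, so that their differences are lower limits. Over all 19938 genes the median difference was 0.04. In all, 15 of 40 kinesins passed, where 16.0% of all genes did: 12 were higher, where 6.70% of all genes were, and 3 were lower, where 9.30% were (limma, Benjamini-Hochberg adjusted p under 0.05).

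Spindle assembly rests on Kif11, which slides antiparallel microtubules apart to make the spindle bipolar, and on Kif15, which can back it up. Kif11 was at 10.14 in the PtchLacZ/+ tumour, 10.04 and 10.07 in the SmoM2 tumours at 2 months and 1 month, and 4.89 in the cerebellum. Kif15 was at 9.19, 9.09 and 8.94 in the tumours in the same order, and at 5.04 in the cerebellum. The tumours lay close together and far above the cerebellum, and Kif11 rose by 5.20 ± 0.17 (limma standard error, adjusted p = 0.00231) and Kif15 by 4.03 ± 0.19 (adjusted p = 0.00295).

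The motors that act on chromosomes and on microtubule ends showed the same separation. Kif2c, which takes apart microtubule ends to correct faulty kinetochore attachments, was at 9.55 in the PtchLacZ/+ tumour, 9.82 and 9.45 in the SmoM2 tumours at 2 months and 1 month, and 4.53 in the cerebellum. It rose by 5.07 ± 0.22 (adjusted p = 0.00295). Kif18a, which damps chromosome movement at the metaphase plate, was at 8.27, 8.15 and 7.97 in the tumours, and at 4.86 in the cerebellum. Its relative Kif18b, which limits the length of astral microtubules, was at 9.36, 9.52 and 9.34 in the tumours, and at 5.76 in the cerebellum. For neither of the pair did any tumour come within 3 log2 units of the cerebellum, and they rose by 3.27 ± 0.20 and 3.65 ± 0.18. The chromokinesins bind chromosome arms. Kif4, which also works with Prc1 in the central spindle, was at 8.37, 8.33 and 8.22 in the tumours, and at 4.74 in the cerebellum. Kif22, which pushes chromosome arms away from the poles, was at 9.22, 9.53 and 8.83 in the tumours, and at 5.57 in the cerebellum. They rose by 3.57 ± 0.17 and 3.62 ± 0.30, and the tumour values of Kif22 had the widest spread of the mitotic kinesins (SD 0.35, n = 3).

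Kinesins of cytokinesis rose as well. Kif23, the motor subunit of centralspindlin, was at 9.72 in the PtchLacZ/+ tumour, 9.50 and 9.60 in the SmoM2 tumours at 2 months and 1 month, and 5.25 in the cerebellum. Kif20a, which helps bring the Aurora B complex to the spindle midzone, was at 9.23, 9.42 and 9.16 in the tumours, and at 5.07 in the cerebellum. They rose by 4.36 ± 0.18 and 4.20 ± 0.19 (adjusted p = 0.00295 for both), and the first is a 20.5-fold difference. Kif20b, a relative of Kif20a that acts late in cytokinesis, was at 8.54, 8.09 and 8.65 in the tumours, and at 4.44 in the cerebellum. Kif14, which works with citron kinase at the midbody, was at 8.26, 7.69 and 7.97 in the tumours, and at 5.44 in the cerebellum. They rose by 3.99 ± 0.27 and 2.53 ± 0.27, and Kif14 had the smallest rise of the mitotic kinesins and the highest adjusted p of these (0.00722). Its second probe set lay between 4.02 and 4.07 in the tumours and at 4.05 in the cerebellum, below the lower quartile on all 4 arrays, so that it is not shown to be above background in any. With the mean of both probe sets the rise of Kif14 was 1.26 (adjusted p = 0.0159).

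All 11 mitotic kinesins passed under each of the 9 alternatives run, including when any tumour was left out. The cerebellum was 1 array, and its own spread was not measured. Cell cycle markers moved with these genes: all 4 measured of 5 listed rose, and their summed linear level was 10015 in the PtchLacZ/+ tumour, 8628 and 8737 in the SmoM2 tumours at 2 months and 1 month, and 931 in the cerebellum. In bulk samples, fewer cells of a type and less RNA per cell cannot be told apart. The mitotic kinesins lay on 9 chromosomes, whose genes had median differences between -0.01 and 0.06. Copy number was not tested.

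**Figure D2:**
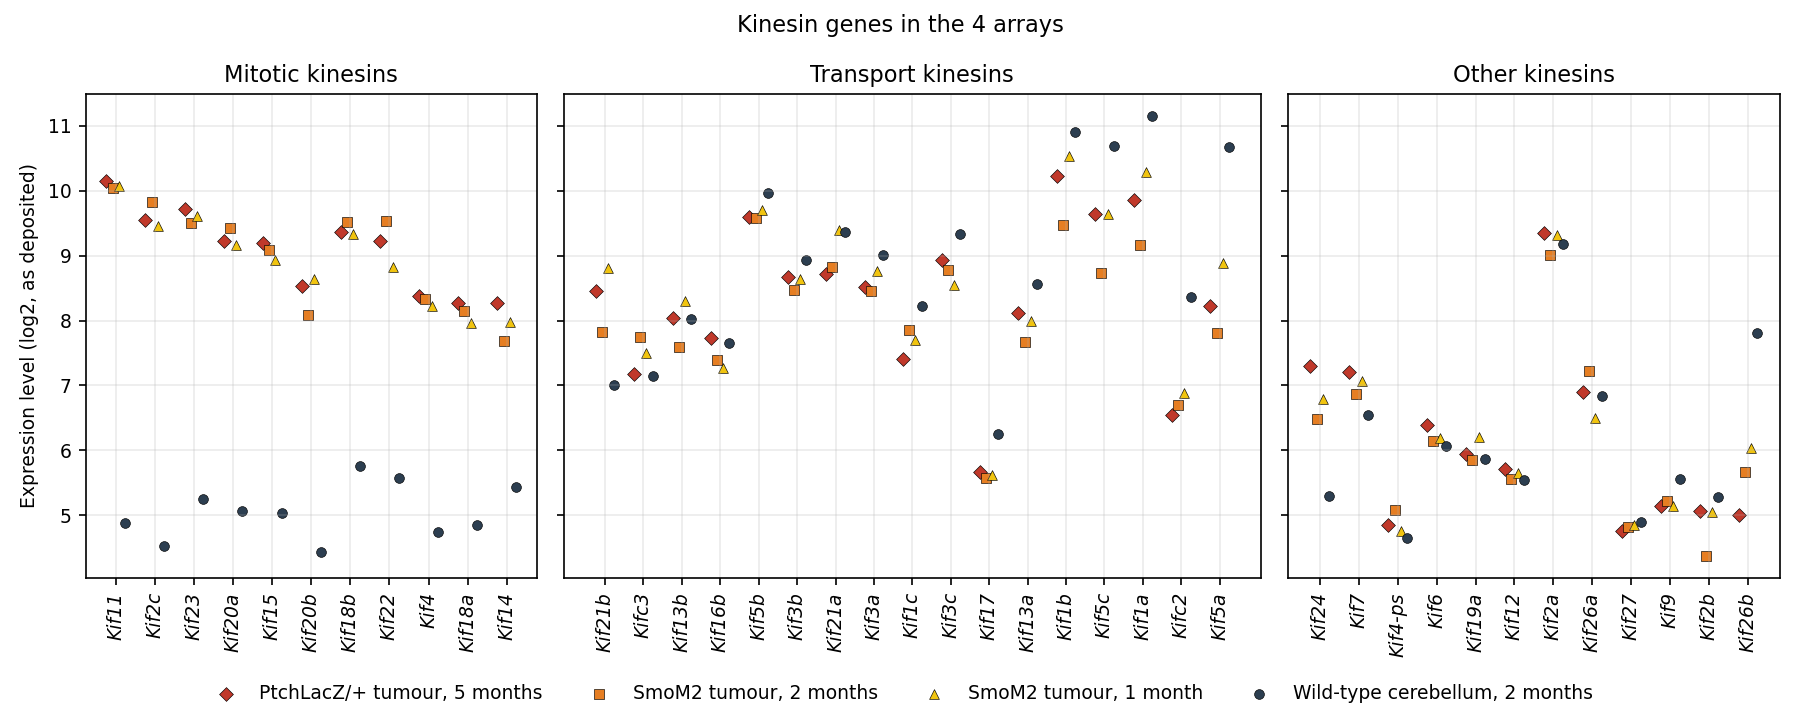
Level of each kinesin gene (y axis, log2 as deposited) in the PtchLacZ/+ tumour, the SmoM2 tumours at 2 months and 1 month, and the wild-type cerebellum, 1 array each, by role. All tumour points of the 11 mitotic kinesins lie above the cerebellum point, and in 12 of the 17 transport kinesins all lie below it.

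Most transport kinesins did not pass the test. All 3 tumours were below the cerebellum for 12 of the 17, above it for 2, and on both sides for 3, while over all genes all 3 were below in 32.0% and above in 38.1%. Kinesin-1 motors carry mitochondria, vesicles and other cargo along axons. Kif5a, made mainly in neurons, was at 8.22 in the PtchLacZ/+ tumour, 7.80 and 8.89 in the SmoM2 tumours at 2 months and 1 month, and 10.66 in the cerebellum. It fell by 2.36 ± 0.43 (adjusted p = 0.0264), and the cerebellum level was 5.13-fold that of the tumours. Kif5c, the other neuronal member, was at 9.64, 8.73 and 9.64 in the tumours, and at 10.69 in the cerebellum, a difference of -1.36 ± 0.42 that did not pass (adjusted p = 0.0988). Kif5b, which is made in most tissues, differed by -0.33 ± 0.17 (adjusted p = 0.277). All tumours lay below the cerebellum for each of the 3 genes, and the SmoM2 tumour at 2 months was the lowest of the tumours for Kif5a and Kif5c. For Kif5b that tumour (9.585) and the PtchLacZ/+ tumour (9.595) were nearly equal.

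Of the minus-end motors, Kifc2, found in neuronal processes, was at 6.54 in the PtchLacZ/+ tumour, 6.69 and 6.88 in the SmoM2 tumours at 2 months and 1 month, and 8.36 in the cerebellum. It fell by 1.66 ± 0.20 (adjusted p = 0.0100), and did so under all 9 alternatives. Kifc3, which acts at epithelial junctions, differed by 0.32 ± 0.27 (adjusted p = 0.522).

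None of the 6 members of kinesin-3, the vesicle motors, passed. Kif1a, which carries synaptic vesicle precursors, was at 9.86 in the PtchLacZ/+ tumour, 9.16 and 10.28 in the SmoM2 tumours at 2 months and 1 month, and 11.15 in the cerebellum, a difference of -1.38 ± 0.45 (adjusted p = 0.111). Kif1b, which carries mitochondria and vesicle precursors, differed by -0.84 ± 0.43 (adjusted p = 0.286). Both were lower than the cerebellum in all 3 tumours, with a spread between tumours (SD 0.57 and 0.55, n = 3 each) about as wide as that of Kif5a (SD 0.55). Kif1c, Kif13a, Kif16b and Kif13b differed by -0.57, -0.63, -0.18 and -0.05. The kinesin-2 genes also missed the threshold. Kif3a and Kif3b, the motor subunits of anterograde transport in cilia, differed by -0.43 ± 0.20 and -0.34 ± 0.18, the neuronal Kif3c by -0.58 ± 0.22 and Kif17, a motor of dendrites and cilia, by -0.63 ± 0.17, with adjusted p between 0.0686 and 0.295.

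Kif21b, a kinesin-4 motor of dendrites, lay on the other side. It was at 8.45 in the PtchLacZ/+ tumour, 7.82 and 8.81 in the SmoM2 tumours at 2 months and 1 month, and 7.004 in the cerebellum, a difference of 1.35 ± 0.40 that did not pass (adjusted p = 0.0909). Its relative Kif21a differed by -0.38 ± 0.31 (adjusted p = 0.514). Without the SmoM2 tumour at 2 months, 7 of 40 kinesins (17.5%) were lower, where 16.7% of all genes were, with Kif5c (-1.05, adjusted p = 0.00548), Kif1a (-1.08, adjusted p = 0.0164), Kif17 (-0.60, adjusted p = 0.0339) and Kif1c (-0.66, adjusted p = 0.0470) added, and Kif21b passed as higher (1.62, adjusted p = 0.00352). Kif5a missed the threshold without the PtchLacZ/+ tumour (adjusted p = 0.0671) and when all probe sets were fitted (adjusted p = 0.0847).

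Markers of mature neurons were lower in the tumours too. Of 8, all measured, 7 fell, and their summed linear level was 1905 in the PtchLacZ/+ tumour, 2118 and 3350 in the SmoM2 tumours at 2 months and 1 month, and 21910 in the cerebellum, with none under the lower quartile in all tumours. Their differences ran from -5.57 to -1.45, with a median of -3.50. The sum was lowest in the PtchLacZ/+ tumour. The median difference of the transport kinesins from the cerebellum was -0.50 there, and -0.55 and -0.38 in the SmoM2 tumours at 2 months and 1 month. The part of cell composition in the kinesin differences was not tested.

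**Figure D3:**
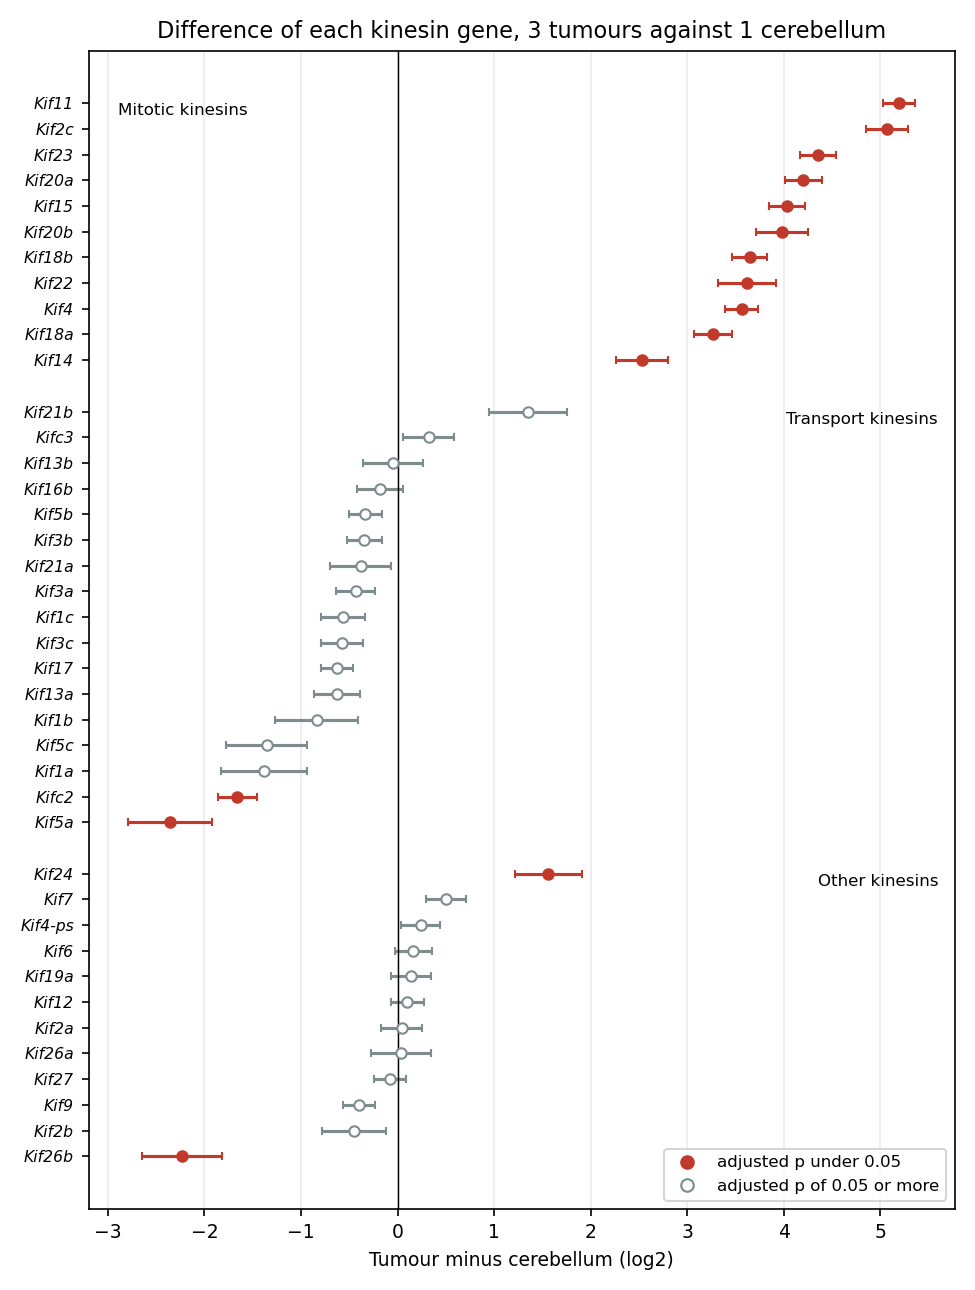
Difference of each kinesin between 3 tumours and 1 cerebellum (x axis, tumour minus cerebellum, log2), with limma's standard error as bars and filled points for an adjusted p under 0.05. Mitotic kinesins run from 2.53 to 5.20, and transport kinesins from -2.36 to 1.35.

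Among kinesins of cilia, Kif7 organises the tip of the primary cilium and restrains or permits Gli activity in the Hedgehog pathway. It was at 7.20 in the PtchLacZ/+ tumour, 6.87 and 7.07 in the SmoM2 tumours at 2 months and 1 month, and 6.55 in the cerebellum, a difference of 0.50 ± 0.20 that did not pass (adjusted p = 0.183). Its second probe set differed by 0.76. Without the SmoM2 tumour at 2 months Kif7 passed as higher (0.59, adjusted p = 0.0421). Kif24, which trims centriolar microtubules and holds back cilium formation in cycling cells, was at 7.31 in the PtchLacZ/+ tumour, 6.49 and 6.79 in the SmoM2 tumours at 2 months and 1 month, and 5.30 in the cerebellum. All tumours were above the cerebellum, and Kif24 rose by 1.56 ± 0.34 (adjusted p = 0.0423). It missed the threshold without the PtchLacZ/+ tumour (adjusted p = 0.0612), without the SmoM2 tumour at 1 month (adjusted p = 0.0709), with arrays centred on their medians (adjusted p = 0.0512) and when all probe sets were fitted (adjusted p = 0.114). Kif27, a paralogue of Kif7, and the motile cilium genes Kif6, Kif9 and Kif19a differed by -0.08, 0.16, -0.40 and 0.14, and none passed. Kif27 lay under the lower quartile on all 4 arrays and is not shown to be above background.

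Kif26b, an atypical kinesin known from kidney development, was at 5.01 in the PtchLacZ/+ tumour, 5.66 and 6.04 in the SmoM2 tumours at 2 months and 1 month, and 7.80 in the cerebellum. It fell by 2.23 ± 0.41 (adjusted p = 0.0265), and its second probe set differed by -1.21. The level in the PtchLacZ/+ tumour was below that array's lower quartile, 5.14, and is not shown to be above background. When all probe sets were fitted it missed the threshold (adjusted p = 0.0847). Its relative Kif26a differed by 0.04 ± 0.31 (adjusted p = 0.962). Kif2a, a microtubule depolymerase of spindle poles and growing axons, differed by 0.04 ± 0.21 (adjusted p = 0.933). Kif2b, Kif12 and Kif4-ps differed by -0.45, 0.10 and 0.24, and none passed. Kif2b lay under the lower quartile in all 3 tumours. The low values of Kif4-ps, between 4.75 and 5.08 in the tumours and at 4.66 in the cerebellum, lay under the lower quartile on all 4 arrays.

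Genes that work with kinesins were read in the same fit. All 12 spindle partners rose, where 6.70% of all genes did, with a median difference of 4.01, and among them were the cytokinesis factor Ect2 (5.73 ± 0.17), the spindle assembly factor Tpx2 (5.10 ± 0.19) and the microtubule bundler Prc1 (4.76 ± 0.20). Racgap1, which forms centralspindlin with Kif23, rose by 3.30 ± 0.19, and Cenpe, a kinesin of the kinetochore whose symbol lies outside the rule, rose by 4.06 ± 0.25. In the cerebellum, 6 of the 12 (Cenpe, Ect2, Hmmr, Nusap1, Prc1 and Tpx2) lay below the lower quartile, so that their differences are lower limits with no order. Of 12 measured genes for light chains and cargo adaptors, 5 fell, where 9.30% of all genes did, and none rose, with a median of -0.63. Madd, an adaptor of Kif1a and Kif1b, fell by 1.81 ± 0.28, and the kinesin-1 cargo adaptors Mapk8ip2 and Mapk8ip3 fell by 1.48 ± 0.20 and 1.17 ± 0.20. Also lower were Kifap3, which links kinesin-2 to cargo (-1.07 ± 0.22), and Kifbp (-0.97 ± 0.17), while the light chain genes Klc3 and Klc4 and the mitochondrial adaptor Trak1 differed by 0.27, 0.08 and 0.17 and did not pass.

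Dynein runs along microtubules in the other direction. Of 8 dynein and dynactin genes, 2 fell, where 9.30% of all genes did, and none rose, with a median of -0.28. Dync1i1, the neuronal intermediate chain, was at 5.48 in the PtchLacZ/+ tumour, 5.72 and 6.04 in the SmoM2 tumours at 2 months and 1 month, and 9.67 in the cerebellum, and fell by 3.92 ± 0.26 (adjusted p = 0.00373). Dync1li2 fell by 0.80 ± 0.18 (adjusted p = 0.0486). Dync1i2, a more widely made relative of Dync1i1, differed by 0.34 ± 0.19, the heavy chain gene of cilia Dync2h1 by 0.09 and Dctn2 by 0.01, and Dctn1 by -0.74, none of which passed. Of 6 tubulin genes, the track of these motors, 4 rose, where 6.70% of all genes did. Tubb5 rose by 2.95 ± 0.20, Tubb2b by 2.44 ± 0.20, Tubb3 by 1.17 ± 0.19 and Tuba1a by 0.88 ± 0.18. Tubb4a and Tubb2a differed by -1.45 ± 0.38 (adjusted p = 0.0677) and -0.22 ± 0.24 (adjusted p = 0.642). Over the 4 lists 16 of 38 genes rose (42.1%, against 6.70% of all genes) and 7 fell (18.4%, against 9.30%). The 7 were 11 (28.9%) without the SmoM2 tumour at 2 months, where the share over all genes was 16.7%, and 2 (5.26%) without the PtchLacZ/+ tumour, where it was 4.70%, and 2 when all probe sets were fitted.

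**Figure D4:**
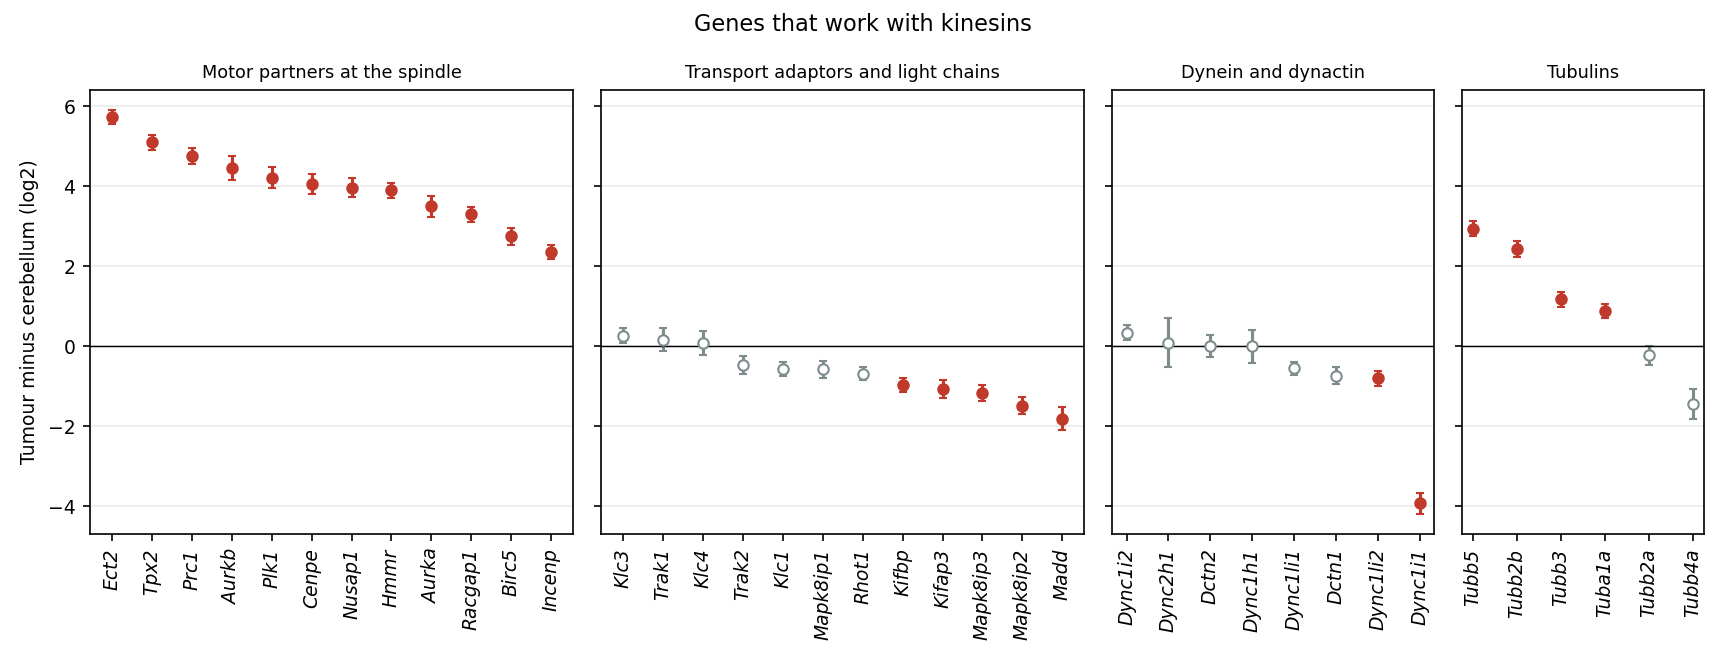
Difference of genes that work with kinesins between 3 tumours and 1 cerebellum (y axis, tumour minus cerebellum, log2), with limma's standard error as bars and filled points for an adjusted p under 0.05. All 12 spindle partners passed as higher, and 5 of 12 adaptors and light chains passed as lower.

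The next comparison set the PtchLacZ/+ tumour against both SmoM2 tumours, to ask whether the kinesins differ between these models. No kinesin passed in limma, and neither did any of the 19938 genes (0%), while at an unadjusted p under 0.05 there were 280 genes (1.40%) and, among kinesins, Kif26b alone. Differences ran from -0.84 to 0.67, with standard errors of 0.25 to 0.51, and no kinesin reached 1 log2 unit in either direction, where 0.321% of all genes were higher and 0.617% lower by that much. Kif26b differed by -0.84 ± 0.29 (unadjusted p = 0.0377, adjusted p = 1.00) and Kif24 by 0.67 ± 0.28 (unadjusted p = 0.0647). Among mitotic kinesins the differences lay between -0.09 and 0.44, with a median of 0.10, and among transport kinesins between -0.45 and 0.45, with a median of 0.08. Markers of some other cell types were lower in the PtchLacZ/+ tumour. The median difference was -2.41 for Purkinje cells, -0.94 for oligodendrocytes and -0.93 for astrocytes. Of the measured markers, 4 of 4, 4 of 4 and 3 of 5 were at an unadjusted p under 0.05 in limma. The median was -0.52 for endothelium and -0.46 for mature neurons, but 0.43 for microglia and macrophages and 0.42 for choroid plexus. The mature neuron markers ran from -3.05 for Gabra6 to 0.14 for Rbfox3. For endothelium and choroid plexus the SmoM2 tumours also differed from each other, with median differences of 1.16 and -0.98 (2 months minus 1 month). The part of these markers in the kinesin differences was not tested. Genotype and age cannot be told apart here.

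The SmoM2 tumour at 2 months was set against that at 1 month, with 1 array each and thus no test. The differences of mitotic kinesins lay on both sides of 0, with 7 higher and 4 lower at 2 months, from -0.56 for Kif20b to 0.70 for Kif22. Among transport kinesins 13 of 17 were lower at 2 months, with a median of -0.31, against 0.08 over all genes. Kif1a was at 9.16 at 2 months and 10.28 at 1 month, Kif5a at 7.80 and 8.89, and Kif1b at 9.47 and 10.53. These 3 kinesins were lower by at least 1 log2 unit (-1.12, -1.09 and -1.06), as 2.05% of all genes were, and none was higher by that much, as 1.66% were. Kif21b (-0.99) and Kif5c (-0.91) came next.

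Other measures differed between these arrays too. The summed level of the mature neuron markers was 2118 at 2 months and 3350 at 1 month, and their median difference was -0.54. The summed choroid plexus markers were at 81.3 at 2 months and 2584 at 1 month, and the endothelial markers at 836 and 369. Genes also differed by genomic span in RefSeq: of 5 classes of equal size, that with the longest spans had a median of -0.08, and the others had medians of 0.08 to 0.16. Of the 17 transport kinesins, 8 were in the longest class and 8 in the next. After subtracting the median of its span class, Kif5a was at -1.17, Kif21b at -1.08, Kif1a at -1.04 and Kif1b at -0.99, so that 3 kinesins were past 1 log2 unit, with Kif21b in place of Kif1b. That setting was chosen after seeing the data, and the part of these markers in the differences was not tested.

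**Figure D5:**
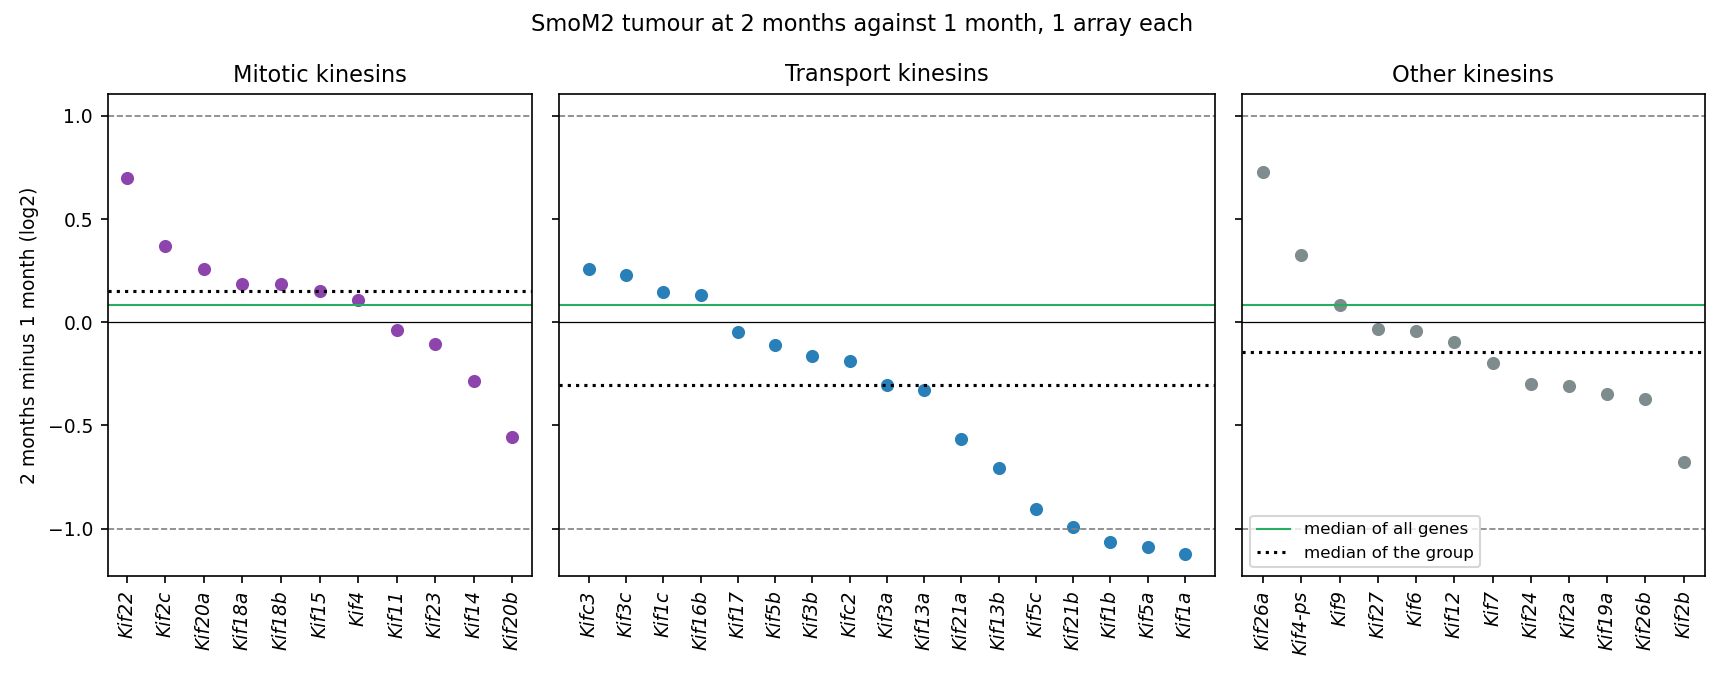
Difference of each kinesin between the SmoM2 tumours at 2 months and 1 month (y axis, 2 months minus 1 month, log2), 1 array each, with dashed lines at 1 log2 unit either way, dotted lines at the median of each group and a green line at the median of all genes. Transport kinesins reach down to -1.12, and mitotic kinesins lie between -0.56 and 0.70.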

How the data were processed

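RNA of 3 medulloblastomas and 1 cerebellum was measured on Affymetrix Mouse Gene 1.0 ST arrays. The log2 expression values of 35557 probe sets were deposited by the authors, and the submitters' processing notes name Expression Console. How it summarised and normalized the arrays is not given in those notes. Values between 2.71 and 14.9 were read as log2 and used unchanged.

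Gene names came from the platform annotation, with symbols updated through RefSeq by Entrez identifier. A single symbol was given for 21789 probe sets, several for 1621 and none for 12147. Each of 19938 genes was represented by its probe set of highest mean, a choice that concerned 6 kinesins (the 40 kinesins had 46 probe sets).

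Comparisons used limma 3.58.1 in R 4.3.3 (lmFit, eBayes), adjusted over all 19938 genes with the Benjamini-Hochberg method, at a threshold of 0.05. A single array was assumed to vary like the group it was compared with. This left 2 residual degrees of freedom for tumour against cerebellum and 1 for PtchLacZ/+ against SmoM2. To these eBayes added prior degrees of freedom, from a spread estimated over all genes. The fit was tested on simulated data in which each gene had the same spread on every array. The assumption about a single array was thus not tested there. Without detection calls, levels below an array's lower quartile over named genes are treated as not shown to be above background. The number of arrays limits the precision.

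Members, roles and lists were chosen with earlier results of these data known. Every kinesin was named. In each partner list the 3 largest differences in each direction were named, and Racgap1, Cenpe, Kifap3, Kifbp and Tuba1a were added after their values were seen. Values in every array were set for called kinesins that differed by at least 2 log2 units, and those of the other genes were chosen after they were seen. Alternatives changed the normalization, the filter on dim genes, the prior variance, the choice of probe set and the tumours included.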

Additional observations from a re-analysis of the deposited data

Results flagged for a closer look

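Kif16b, a motor of early endosomes, lay below the cerebellum in both SmoM2 tumours and above it in the PtchLacZ/+ tumour. It differed from the cerebellum by 0.08 in the PtchLacZ/+ tumour and by -0.25 and -0.38 in the SmoM2 tumours at 2 months and 1 month. The difference between PtchLacZ/+ and the SmoM2 mean was 0.40 on the log2 scale and did not pass in limma (unadjusted p = 0.188, adjusted p = 1.00).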

How the results depend on the processing

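The count of 12 kinesins higher in tumours was 11 to 14 when 1 tumour was left out and 11 or 12 under the other alternatives. The 3 lower kinesins became 1 when all probe sets were fitted, and 2 to 7 when 1 tumour was left out (7 without the SmoM2 tumour at 2 months). When all 35557 probe sets were fitted, 687 probe sets were higher and 929 lower, a count of probe sets and not of genes. Over all genes, 1336 higher and 1855 lower became 628 to 2689 and 937 to 3321 with 1 tumour left out. Both counts were lowest without the PtchLacZ/+ tumour and highest without the SmoM2 tumour at 2 months. With 1 tumour left out, the median of mitotic kinesins was 3.88 to 4.02 and that of transport kinesins -0.59 to -0.45. Signs turned only for 3 genes near 0. Kif26a was at -0.023 with quantile normalization, and with 1 tumour left out it ran from -0.14 to 0.23, Kif13b from -0.21 to 0.14 and Kif2a from -0.018 to 0.15 (-0.0040 without the SmoM2 tumour at 1 month). The cause of these changes was not tested. No kinesin passed between PtchLacZ/+ and SmoM2 under 7 alternatives. Over all genes the count there was 0 in 4 of these and 14, 4 and 1 with quantile normalization, only genes above the median level, and a trended prior. The count of 3 kinesins past 1 log2 unit between 2 months and 1 month became 4 with quantile normalization or centred arrays. No paired analysis was possible because the labels number no replicates.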
